A study of Mus musculus with 4 samples.

Results

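Cish, Socs1, Socs2, Socs3 and Pim1, 5 genes that cytokine signals switch on and that then act back on those signals, were followed in sorted CD8+ T cells of mouse BM after SCT. They were taken by name from the 17561 genes of the count table, each symbol being matched to 1 Ensembl identifier, and all 5 were detected. The cells came from 4 treatment groups, labelled Isotype control + vehicle, TIGIT inhibition + vehicle, Isotype control + Lenalidomide, and TIGIT inhibition + lenalidomide. Recipients were on a C57BL/6 background, WT or CRBN transgenic, and received BM and T cells from genetically matched donors. The CRBN transgene encodes a modified form of cereblon, the protein through which lenalidomide acts, that the drug can engage. According to the methods, the mice were female, 8 to 12 weeks old, and carried Vk12653 myeloma before the transplant. Antibody or isotype was given from the day of transplant, lenalidomide or vehicle from day 14, and BM was taken at week 4 (day 28). Each group was a single library of sorted CD8+ T cells pooled from 5 mice, so a library has no replicate and a value belongs to the pool, not to a mouse.

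In the tables the libraries carry the numbers 1 to 4, and no label read here ties a number to a treatment. Values are therefore given library by library or over all 4, without a treatment, a p-value or an SD. The 11754 cells carried 15556967 to 38440687 UMIs per library, a UMI being the tag of 1 captured RNA molecule, and 56 of 11698 distinct barcode sequences occurred in more than 1 library. Cells fell into the 8 clusters of the authors, called here Tn, Tcm, transitory Teff, GzmB+ Teff, GzmA+ Tex, TIM-3+ Tex, TIGIT+ Teff and cycling cells. Since these clusters were drawn from the same expression values, differences between them describe the clusters and are not tests. Markers of naive cells summed to 1260 CPM (UMIs of a gene or list per 1000000 UMIs) in Tn against 122 to 565 elsewhere, those of cycling cells to 1877 CPM in the cycling cluster against 29.1 to 266, and those of exhaustion were highest in TIM-3+ Tex at 1058 CPM. No markers of memory or effector cells were summed, so the names Tcm and Teff are those of the authors and were not checked. GzmA+ Tex stood apart: its 7 macrophage and monocyte markers summed to 1398 CPM (934 to 1627 over the libraries), against 6.33 to 77.0 CPM in the other clusters, and 92.8% of its cells held at least 1 such UMI. The part of these transcripts in the GzmA+ Tex values below was not tested. Markers of B and plasma cells (6 genes) were found in all clusters, at 83.7 to 184 CPM summed, and 36.8% to 60.1% of cells held such a UMI. All intervals are at the 95% level and cover counting error only.

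Cytokines such as IL-2, IL-7, IL-15 and the interferons bind receptors whose JAK kinases phosphorylate STAT transcription factors. STATs switch on genes of the SOCS family, whose proteins bind receptors or JAKs through an SH2 domain and recruit a ubiquitin ligase through the SOCS box, closing a negative feedback loop. CIS (Cish) and SOCS2 are mainly induced through STAT5. SOCS1 is induced by interferons and by the common gamma chain cytokines and inhibits JAKs directly, and SOCS3 blocks signals through gp130, the IL-6 receptor chain. CIS is also known as a brake on TCR signalling in CD8+ T cells. Pim1 encodes a serine/threonine kinase that STATs induce and that promotes survival and growth, so it reports on cytokine signals without being a SOCS protein.

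The genes lie on 5 chromosomes in the GENCODE M21 annotation of mm10: Cish (ENSMUSG00000032578) at chr9:107296026-107302784 on the plus strand, Socs1 (ENSMUSG00000038037) at chr16:10782240-10785536 on the minus strand, Socs2 (ENSMUSG00000020027) at chr10:95385362-95417180 on the minus strand, Socs3 (ENSMUSG00000053113) at chr11:117966079-117970047 on the minus strand, and Pim1 (ENSMUSG00000024014) at chr17:29490753-29496112 on the plus strand. All 5 are protein coding. RefSeq promoter windows on GRCm38.p6, from 250 bases before to 50 bases after a start site, were searched for TTCNNNGAA, the palindrome that STAT dimers favour, which reads the same on both strands. It occurred in 8.30% of 32851 windows and at least 2 times in 0.457%. The Cish window held 2 matches, beginning at the start site and 11 bases after it. The Socs3 window held 1, beginning 154 bases before the start, and those of Socs1 and Pim1 held none. The Socs1 window was then also searched for GAAA followed by any 2 bases and GAAA, an interferon-type element, after its sequence had been seen. This motif occurred on either strand in 3.44% of all windows and at least 2 times in 0.225%, and the Socs1 window held 2 overlapping matches, beginning 83 and 77 bases before the start. The windows of Cish, Socs3 and Pim1 did not hold it. No window was at hand for Socs2, so neither motif was searched for in that gene. A match describes the letters of a window and was not tested as a binding site.

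The stretches that hold these matches are printed 5′ to 3′ on the strand of the gene, with the matches in capitals, because the results below turn mainly on Cish and Socs1, and Socs3 is the member whose levels followed those of Socs1 most closely. The 30 bases of Cish lie at chr9:107296654-107296683, in an exon and the UTR of the GENCODE transcript Cish-201. The 150 bases of Socs1 lie at chr16:10785537-10785686, directly before the start site and outside its GENCODE transcripts. The 100 bases of Socs3 lie at chr11:117969457-117969556, outside the exons of the gene and inside an intron of the transcript Socs3-202.
Cish: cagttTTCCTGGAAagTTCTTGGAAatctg
Socs1: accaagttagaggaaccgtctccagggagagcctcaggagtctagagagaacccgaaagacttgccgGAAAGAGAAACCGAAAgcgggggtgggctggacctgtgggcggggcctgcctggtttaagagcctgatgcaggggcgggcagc
Socs3: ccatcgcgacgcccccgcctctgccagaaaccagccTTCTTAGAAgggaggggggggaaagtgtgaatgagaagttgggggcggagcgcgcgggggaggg

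The 5 members did not share 1 pattern over the clusters. Cish was lowest in Tn, Socs1 was highest in GzmB+ Teff and lowest in cycling cells, Socs2 was highest in Tcm, Socs3 was high in GzmB+ Teff, Tcm and Tn, and Pim1 varied least. The plot of levels by cluster and library shows these patterns with every library as a point.

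**Figure D1:**
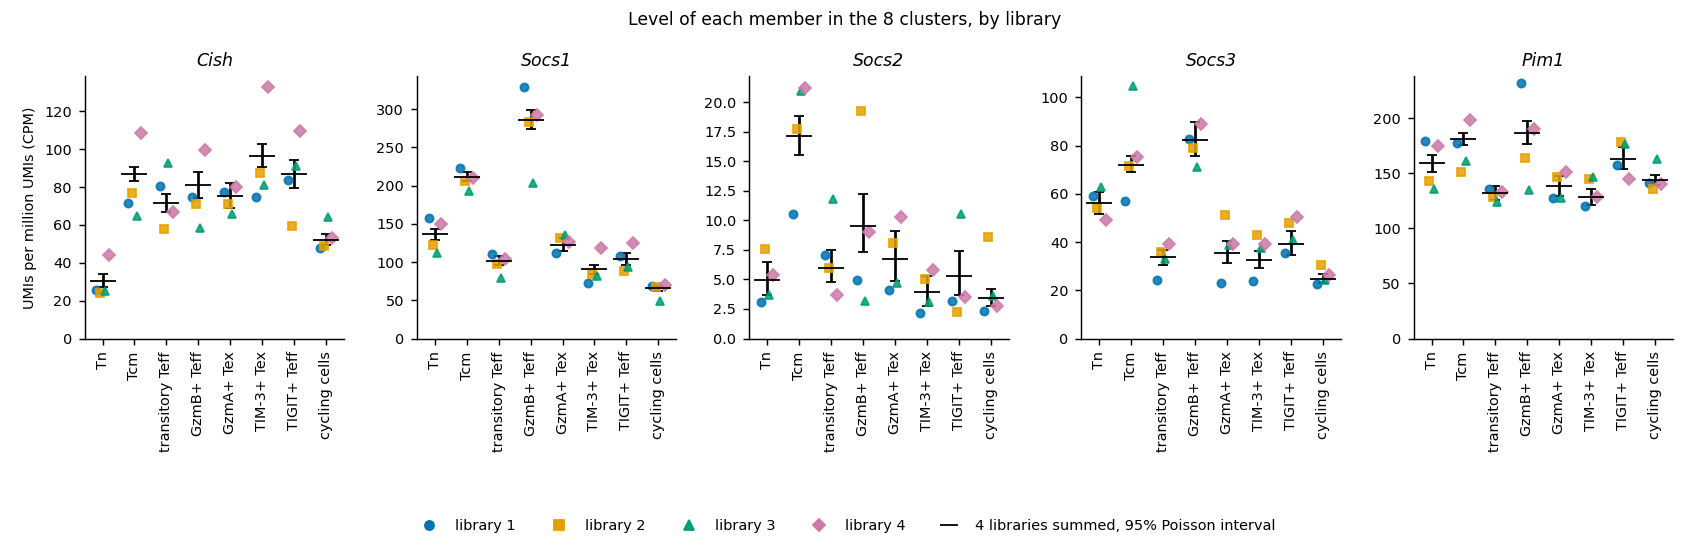
Level of each member in CPM (linear axis from 0, its own scale for each gene) in the 8 clusters. Coloured points are the 4 libraries, and black bars with whiskers give the 4 libraries summed with 95% Poisson intervals. The Tn points of Cish, from 23.97 to 44.1 CPM, and the GzmB+ Teff points of Socs1, from 203 to 329 CPM, are the lowest and the highest of their library, respectively.

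Cish, which encodes the STAT5-induced inhibitor CIS, was present at 30.5 CPM in Tn (27.4 to 34.0, 333 UMIs), the lowest level of any cluster in 4 of 4 libraries. In Tn the libraries 1 to 4 gave 25.8, 23.97, 25.3 and 44.1 CPM. In Tcm they gave 71.5, 76.7, 64.8 and 109 CPM, so each library's Tcm level lay above the Tn level of every library. The level in Tcm was 2.84-fold that in Tn, a log2 ratio of 1.51 (1.34 to 1.68) over all cells and 1.30 to 1.68 in single libraries. Among 10991 genes with at least 100 UMIs, 2.25% were over 2-fold higher in Tcm than in Tn in each of the 4 libraries, and Cish and Socs2 were the 2 of the 5 members among them. A further 0.892% of genes were over 2-fold lower in this way, and no member was.

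The transitory Teff, GzmB+ Teff, GzmA+ Tex, TIM-3+ Tex and TIGIT+ Teff clusters, referred to together as the Teff and Tex clusters, held 71.5 to 96.6 CPM of Cish. Their summed level was 2.68-fold that in Tn, with a log2 ratio of 1.42 (1.26 to 1.59), and the libraries 1 to 4 gave 1.61, 1.53, 1.68 and 1.09. Cish was the only one of the 5 members over 2-fold higher in each library in this comparison, which 6.03% of all genes tested were, while 0.819% were over 2-fold lower in each and no member was. Library 4 held the highest Cish level in Tn, Tcm, GzmB+ Teff, GzmA+ Tex, TIM-3+ Tex and TIGIT+ Teff, and without it the log2 ratio was 1.61. Over all 4 libraries TIM-3+ Tex had the highest level, 96.6 CPM (90.7 to 103). Libraries 1 to 4 gave 74.6, 87.3, 81.2 and 133 CPM there, and it was the highest cluster in 2 of them. In library 1 TIGIT+ Teff had 84.0 CPM, and in library 3 transitory Teff had 92.8 CPM. TIM-3+ Tex lay above Tcm, the next in order, in 4 of 4 libraries and by a log2 ratio of 0.15 (0.04 to 0.26). From Tcm at 86.8 CPM the order ran through TIGIT+ Teff, GzmB+ Teff and GzmA+ Tex to transitory Teff at 71.5 CPM. Each of these neighbours lay within counting error of the next. The summed intervals of Tcm (83.2 to 90.5) and transitory Teff (66.9 to 76.2) did not overlap, but in libraries 1 and 3 transitory Teff lay above Tcm.

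Cycling cells held 52.3 CPM of Cish (49.6 to 55.1), above Tn and below the other clusters when the libraries were summed. Against the Teff and Tex clusters the log2 ratio was −0.65 (−0.74 to −0.56), and libraries 1 to 4 gave −0.72, −0.50, −0.34 and −0.82. When each cell was thinned at random to 2500 UMIs, so that deeper cells weighed no more, the ratio was −0.89. The share of cells with a Cish UMI depended on depth in the same way: cycling cells, with a median of 13959.5 UMIs the deepest cluster, had one in 38.6% of cells, but in 10.9% (9.58% to 12.4%) after thinning. After thinning the share was 6.86% in Tn (5.56% to 8.34%) and 16.0% to 21.6% in Tcm and the Teff and Tex clusters. Every cell in the table had been selected as a CD8+ T cell, so no cell type that lacks these genes was at hand to measure the share given by free RNA.

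Socs1, the inhibitor of JAKs that interferons induce, was highest in GzmB+ Teff, at 286 CPM (273 to 299). Libraries 1 to 4 gave 329, 283, 203 and 293 CPM there, in each case the highest cluster of the library, with an interval above those of all other clusters in 3 of them. Tcm followed at 212 CPM (206 to 217), with 222, 206, 192 and 210 CPM. The remaining clusters were below Tcm in every library. Tn and GzmA+ Tex had 136 and 123 CPM, TIGIT+ Teff, transitory Teff and TIM-3+ Tex 104, 102 and 90.4 CPM, and among these the step from GzmA+ Tex to TIGIT+ Teff alone was beyond counting error and in the same direction in 4 of 4 libraries. Cycling cells had the lowest level, 65.5 CPM (62.4 to 68.6), in 4 of 4 libraries.

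GzmB+ Teff was compared with the other 4 Teff and Tex clusters after these levels had been seen. There the other clusters summed to a 2.79-fold lower Socs1 level, a log2 ratio of 1.48 (1.40 to 1.56), with 1.75, 1.499, 1.08 and 1.37 in libraries 1 to 4. Socs1 was the only member over 2-fold higher in GzmB+ Teff in each library, among 1.02% of all genes tested, whereas 0.864% were over 2-fold lower in each. Socs3 came close, with a log2 ratio of 1.25 (1.10 to 1.40) and 1.64, 0.92, 0.91 and 1.16 in libraries 1 to 4. The values for Pim1 and Cish were 0.44 (0.35 to 0.53) and −0.02 (−0.15 to 0.12), and both had a negative ratio in at least 1 library. Socs2 had 0.81 (0.38 to 1.23), but library 2 alone gave 1.71, library 3 gave −1.56, and the value without library 2 was 0.31.

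The comparisons of Socs1 with Tn depended on which clusters were summed. Tcm lay above Tn by a log2 ratio of 0.64 (0.55 to 0.72), with 0.48 to 0.77 in single libraries. The Teff and Tex clusters together did not differ from Tn beyond counting error, with a log2 ratio of −0.06 (−0.14 to 0.02), −0.38 in library 1 and −0.04 to 0.14 in the others. Without GzmB+ Teff the ratio was −0.41, and with 1 cell per clonotype it was 0.41. Cycling cells stood below the Teff and Tex clusters at a log2 ratio of −0.997 (−1.08 to −0.92), with −0.83, −1.001, −1.24 and −1.06 in libraries 1 to 4. No member was over 2-fold lower in cycling cells in each library, as 0.61% of all genes were, and none was over 2-fold higher, as 4.28% were.

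**Figure D2:**
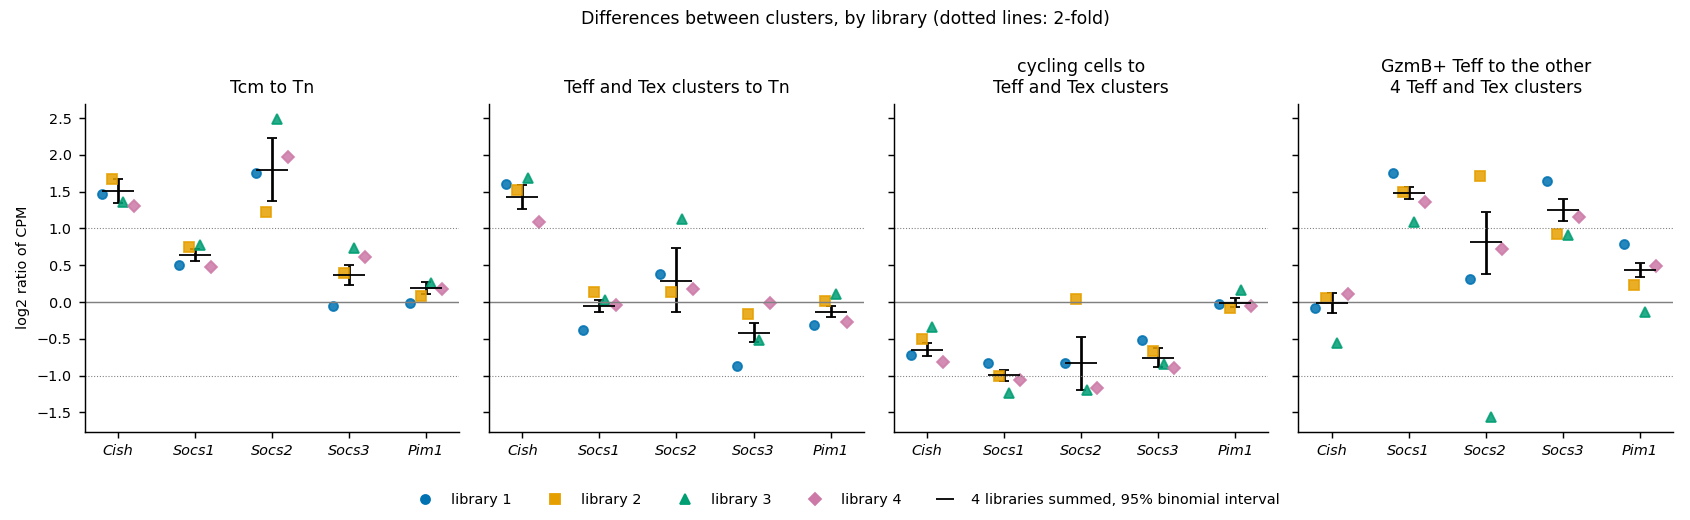
Log2 ratios of CPM between clusters for the 5 members, 1 panel for each comparison. Coloured points are the 4 libraries, black bars with whiskers the 4 libraries summed with 95% binomial intervals, the solid line marks no difference and the dotted lines a 2-fold difference. All 4 points lie above the upper dotted line for Cish and Socs2 in the first panel, for Cish in the second and for Socs1 in the last.

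Socs2, an inhibitor that acts on growth hormone and STAT5 signals, was sparse, with 842 UMIs in all cells. It was present at 17.1 CPM in Tcm (15.6 to 18.8) and at 3.40 to 9.51 CPM in the other clusters. Tcm held 10.5, 17.8, 20.9 and 21.2 CPM in libraries 1 to 4 and was the highest cluster in 3 of them, while in library 2 GzmB+ Teff had 19.3 CPM. In Tn the same libraries gave 3.13, 7.59, 3.72 and 5.39 CPM, all below the lowest Tcm value. The log2 ratio of Tcm to Tn was 1.79 (1.38 to 2.23), and single libraries gave 1.23 to 2.49. The Teff and Tex clusters lay within counting error of Tn, with a log2 ratio of 0.29 (−0.14 to 0.74). Beyond Tcm, no step in the order of its levels exceeded counting error.

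Socs3, the inhibitor of gp130 signals, was at 82.5 CPM in GzmB+ Teff (75.7 to 89.8), 72.2 CPM in Tcm and 56.0 CPM in Tn, and at 24.9 to 39.3 CPM in the other clusters. GzmB+ Teff was the highest cluster in libraries 1, 2 and 4, with 83.0, 79.1 and 88.8 CPM, and in library 3 it had 71.2 CPM against 105 CPM in Tcm. Tn lay between 49.1 and 62.9 CPM. The Teff and Tex clusters together had less Socs3 than Tn at a log2 ratio of −0.42 (−0.55 to −0.28), but libraries 1 to 4 gave −0.87, −0.16, −0.52 and −0.01. Without GzmB+ Teff the ratio was −0.69, and with 1 cell per clonotype it was 0.024. That setting kept 452 of 732 GzmB+ Teff cells but 133 of 1056 TIM-3+ Tex cells. Cycling cells were lowest in 4 of 4 libraries, at 22.5, 30.6, 24.4 and 26.2 CPM, and stood at a log2 ratio of −0.76 (−0.89 to −0.63) to the Teff and Tex clusters.

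Pim1, the kinase among the 5, was the most even. Its clusters lay between 128 CPM in TIM-3+ Tex and 186 CPM in GzmB+ Teff, and none of the 7 steps in their order was both beyond counting error and in 1 direction in 4 libraries. Tcm and Tn differed by a log2 ratio of 0.19 (0.11 to 0.27), with −0.02 in library 1. The Teff and Tex clusters were at −0.13 (−0.21 to −0.05) relative to Tn, with signs that varied between libraries, and at 0.018 with 1 cell per clonotype. Cycling cells stood at −0.01 (−0.07 to 0.05) relative to the Teff and Tex clusters, where the 4 SOCS genes had −0.65 to −0.997. In GzmB+ Teff library 1 gave 232 CPM and library 3 gave 135 CPM, a wider range than in any other cluster.

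GzmB+ Teff also had high levels of interferon-response genes. Isg15, a ubiquitin-like protein induced by type I interferon, was at 1086 CPM in GzmB+ Teff (961 to 1150 over the libraries) and at 22.2 to 106 CPM elsewhere. Of 10 known interferon targets, 6 were over 2-fold higher in GzmB+ Teff than in the other 4 Teff and Tex clusters in each library, namely Irf7, Isg15, Ifit1, Ifit3, Gbp2 and Cxcl10, and the median log2 ratio of the list was 2.15 against −0.25 over all genes tested. To look within clusters, cells were thinned to 2500 UMIs and split by whether they held a UMI of Isg15, Ifit1 or Ifit3, a split chosen after values had been seen. Within GzmB+ Teff, the 658 cells with such a UMI had 322 CPM of Socs1 and the 74 cells without had 184 CPM. The log2 ratio was 0.81 (0.31 to 1.35), and libraries 1 to 4 gave 1.43, 0.66, 1.14 and 0.29. In transitory Teff it was 0.33 (0.00 to 0.65) and in cycling cells 0.49 (0.08 to 0.89), with 1 and 0 of the 4 libraries below 0. In the other 5 clusters the interval held 0. The log2 ratio of Socs1 was −0.30 in TIM-3+ Tex, −0.24 in GzmA+ Tex, −0.03 in Tn, 0.11 in Tcm and 0.30 in TIGIT+ Teff. Socs3 had 70.5 CPM in GzmB+ Teff cells with and 103 CPM in those without these UMIs, a log2 ratio of −0.54 (−1.25 to 0.24), and libraries 1 to 4 gave −0.74, −0.30, −0.30 and −0.66. Cish had 91.8 and 59.5 CPM there, a log2 ratio of 0.63 (−0.25 to 1.66), and Pim1 a log2 ratio of −0.35 (−0.82 to 0.14), each with libraries on both sides of 0. Whether Socs1 differed from the other members in this split was not tested.

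**Figure D3:**
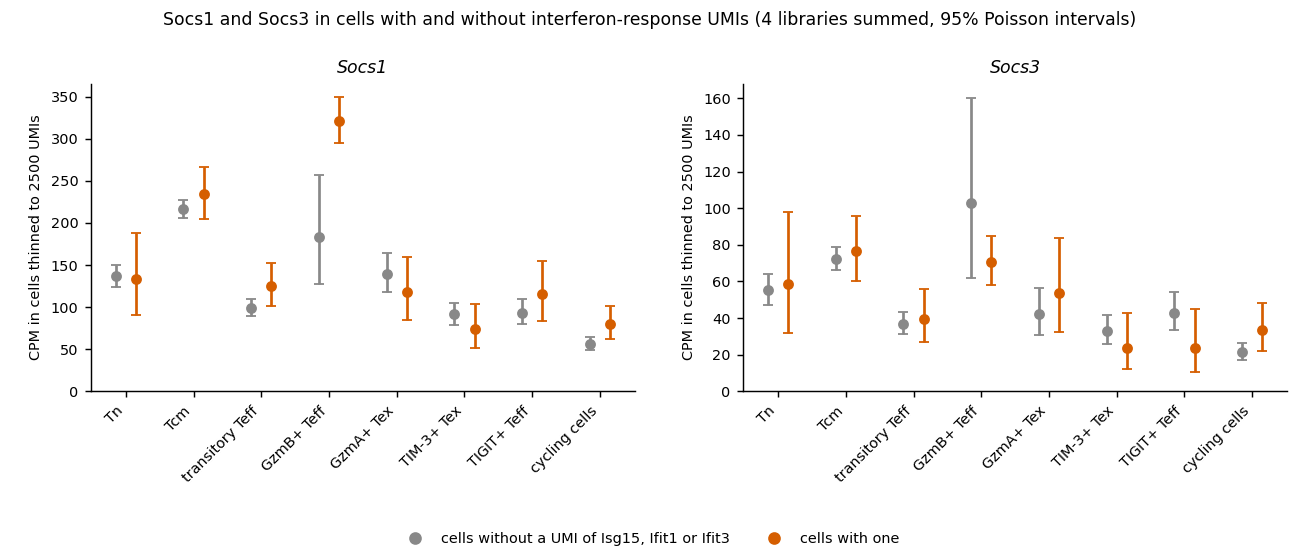
Socs1 and Socs3 in cells thinned to 2500 UMIs, in CPM on linear axes from 0, for cells with a UMI of Isg15, Ifit1 or Ifit3 (orange) and cells without (grey) in each cluster. Points are the 4 libraries summed and whiskers are 95% Poisson intervals. In GzmB+ Teff the orange Socs1 point is at 322 CPM and the grey one at 184 CPM, and the intervals of the pair do not overlap.

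The TCR clonotype of a cell was a separate readout, available for part of the cells. Cells whose clonotype had over 5 cells in its library, called expanded, were compared with cells whose clonotype had 1. Socs1 was lower in expanded cells in transitory Teff, cycling cells and TIM-3+ Tex, in each of the 4 libraries. In cycling cells, 608 expanded cells had 38.0 CPM and 248 single cells had 68.4 CPM, a log2 ratio of −0.85 (−1.11 to −0.58), with −1.005, −0.34, −0.03 and −1.14 in libraries 1 to 4. In TIM-3+ Tex, 484 expanded cells had 65.6 CPM and 42 single cells had 126 CPM, a log2 ratio of −0.94 (−1.40 to −0.46), with −0.67, −0.64, −1.73 and −0.94 in the libraries. In transitory Teff, 866 and 368 cells had 86.6 and 107 CPM, a log2 ratio of −0.30 (−0.53 to −0.08), and the libraries gave −0.24 to −0.46. The expanded cells belonged to 86 clonotypes in transitory Teff, 79 in cycling cells and 58 in TIM-3+ Tex. Without the largest clonotype of each library, which held 20.4% to 30.4% of the expanded cells, the ratios were −0.29, −0.96 and −0.90. In transitory Teff the interval of every single library held 0, as did those of libraries 2 and 3 in cycling cells and libraries 1 and 2 in TIM-3+ Tex. No share over all genes is given for this comparison. Cells of 1 clonotype share their origin, so they are not independent.

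Between expanded and single cells, Cish had log2 ratios of 0.10 (−0.17 to 0.37) in transitory Teff, 0.06 (−0.24 to 0.38) in cycling cells and 0.25 (−0.28 to 0.82) in TIM-3+ Tex, with libraries on both sides of 0 in each. Pim1 had −0.28 (−0.47 to −0.09), −0.21 (−0.36 to −0.05) and −0.30 (−0.72 to 0.14) in the same clusters. Like Socs1, Pim1 was below 0 in each library in cycling cells and TIM-3+ Tex. In transitory Teff library 3 alone gave a positive Pim1 ratio, 0.41. Socs3 had intervals that held 0 in all 3. Socs2 was too sparse for single libraries, but over all of them transitory Teff held 16 UMIs in expanded cells (3.33 CPM) and 27 in single cells (10.8 CPM), a log2 ratio of −1.69 (−2.68 to −0.75), and cycling cells held 4 and 14.

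**Figure D4:**
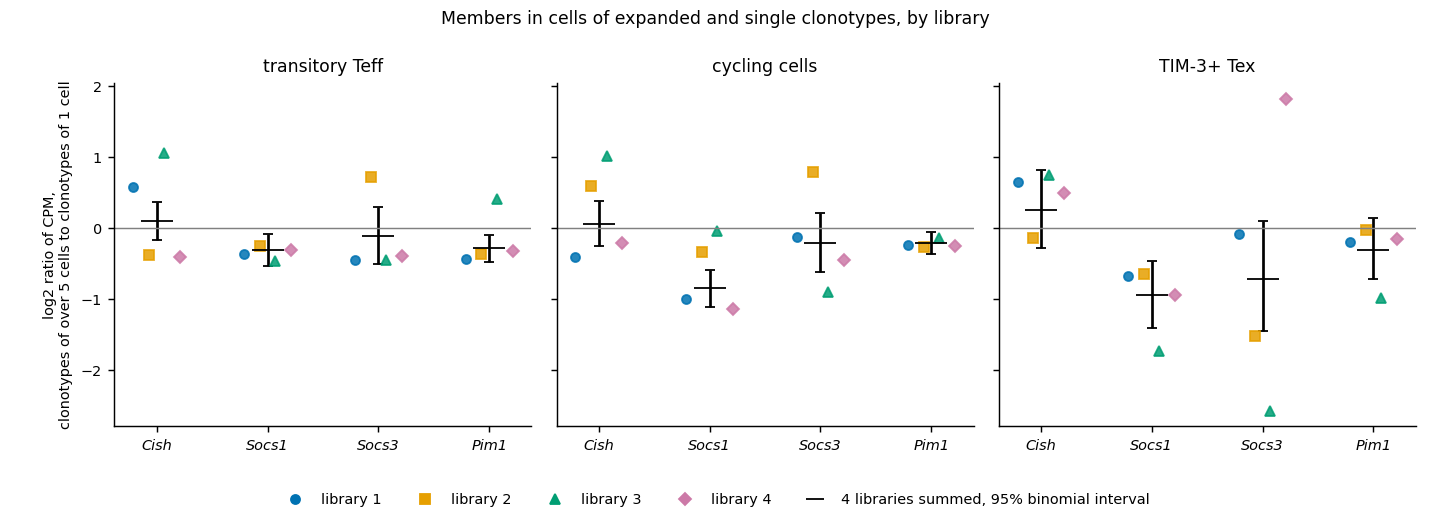
Log2 ratio of CPM between cells of clonotypes with over 5 cells and cells of clonotypes with 1 cell, for Cish, Socs1, Socs3 and Pim1 in 3 clusters. Coloured points are the 4 libraries, black bars with whiskers the 4 libraries summed with 95% binomial intervals, and the line marks no difference. All 12 Socs1 points lie below the line, whereas the Cish points lie on both sides of it in every panel. The Pim1 points also lie below it, except that of library 3 in transitory Teff.

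Among the genes of the pathway, 78 of 82 listed ones had at least 100 UMIs. Of the cytokine receptor chains, Il2ra, the alpha chain of the IL-2 receptor, and Il12rb2, a chain of the IL-12 receptor, were over 2-fold higher in Tcm than in Tn in each library. Il2ra had 1.01 CPM in Tn and 7.10 CPM in Tcm, and Il12rb2 4.13 and 22.3 CPM. Il7r and Il6ra, receptor chains of resting T cells, were over 2-fold lower in Tcm in each library. Il7r had 395 CPM in Tn and 25.5 CPM in Tcm, and Il6ra 51.6 and 1.09 CPM. In the Teff and Tex clusters Il2ra, Il10ra and Il12rb1 were over 2-fold higher than in Tn in each library and Il7r and Il6ra over 2-fold lower. The cytokine genes Il2 and Csf2 were over 2-fold higher in Tcm than in Tn in each library, at 17.1 against 1.65 CPM and 18.2 against 2.75 CPM, and in the Teff and Tex clusters Ifng and Csf1 were. In all, 6 pathway genes were over 2-fold higher in Tcm than in Tn in each library (7.69% of those tested, against 2.25% of all genes) and 2 lower (2.56% against 0.892%). In the Teff and Tex clusters 14 were higher (17.9% against 6.03%) and 2 lower (2.56% against 0.819%). The lists were put together with earlier results of these data known, so these shares describe the lists.

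None of the 4 JAK family kinases was over 2-fold different in each library in any comparison, although the median of their log2 ratios was 0.96 in Teff and Tex clusters against Tn. Stat2, which carries type I interferon signals, was over 2-fold higher in each library both in the Teff and Tex clusters than in Tn and in GzmB+ Teff than in the other 4. It had 11.7 CPM in Tn and 66.1 CPM in GzmB+ Teff. Stat5a and Stat5b, which transmit IL-2 and IL-15 signals, lay at 15.4 to 25.7 and 27.1 to 52.5 CPM over the clusters. Of 10 known STAT5 targets, Il2ra and Bcl6 were over 2-fold higher in Tcm than in Tn in each library and Il2ra and Cdkn1a in the Teff and Tex clusters, and the list's median log2 ratio was 0.18 in Tcm and 0.03 in the Teff and Tex clusters, against 0.13 and 0.31 over all genes tested. Cish, with 1.51 and 1.42, lay above both medians. The list was not split into genes that STAT5 induces and genes that it represses. A higher level of a listed gene, Bcl6 among them, and the median of the list therefore do not measure STAT5 output.

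Of the other SOCS and PIM genes, Socs4, Socs5, Socs6, Socs7, Pim2 and Pim3, 0 of 6 were over 2-fold different in each library in any comparison. Pim2, a second PIM kinase, was at 148 CPM in Tn, 229 CPM in Tcm, 187 CPM in GzmB+ Teff and 63.1 CPM in cycling cells. Of 11 phosphatases, PIAS proteins and adaptors that restrain JAKs and STATs, Ptpn11, which encodes the phosphatase SHP-2, was over 2-fold higher in the Teff and Tex clusters than in Tn in each library, and 0 were in the other comparisons. Ptpn2, a phosphatase that acts on JAKs, was even, at 64.0 to 80.9 CPM. Of 8 genes switched on by TCR signals, Egr2 was over 2-fold higher in the Teff and Tex clusters than in Tn in each library, from 1.83 CPM in Tn to 7.36 to 19.3 CPM. In cycling cells 4 pathway genes were over 2-fold lower than in the Teff and Tex clusters in each library, Il2, Isg15, Ifit1 and Ifit3 (5.13% against 0.61% of all genes), and 0 were higher.

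Over the 32 profiles of 8 clusters in 4 libraries, Socs1 and Socs3 followed each other most closely among the members, with a Pearson correlation of log2(CPM + 10) of 0.85, and Cish correlated with the others at −0.03 to 0.27. Among 4074 genes of at least 50 CPM in a cluster, those most like Cish were Gem (0.88), Rgs1 (0.85) and Serpina3g (0.83). Those most like Socs1 were Cpne3 (0.90), Pim2 (0.87) and Ms4a4c (0.86), and those most like Socs3 were Ms4a4c (0.87), Cd69 (0.85) and Socs1 itself (0.85). Socs2 was most like Klra1 (0.76), Arl4d (0.68) and Hopx (0.63), and Pim1 had no close match, with Herc3 (0.67), Fchsd2 (0.66) and Clec2i (0.64). The profiles share libraries and clusters, so these values describe likeness only.

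Detection of the members in the same cell was sparse. After thinning to 2500 UMIs, and within cluster and library, 602 cells held both Cish and Socs1 where the product of their shares gives 542, a ratio of 1.11 (1.02 to 1.20). Among single clusters its interval lay above 1 in Tn alone, at 1.61 (1.15 to 2.18), and Tcm gave 1.02 (0.90 to 1.15). Socs1 and Socs3 were found together in 455 cells against 404, a ratio of 1.13 (1.03 to 1.23). For this pair the interval lay above 1 in GzmB+ Teff alone, at 1.38 (1.08 to 1.74). Over all clusters the 10 pairs had ratios of 1.004 to 1.48, the highest for Cish and Socs2 with 61 cells against 41.3. In transitory Teff alone, Cish and Socs3 had a ratio of 0.60 (0.33 to 0.99). Socs1 and a UMI of Isg15, Ifit1 or Ifit3 were found together in 758 cells against 714, a ratio of 1.06 (0.99 to 1.14). In GzmB+ Teff that ratio was 1.04 (0.93 to 1.16). There 89.9% of cells held such a UMI, so the ratio could not rise far above 1. Its interval takes no account of this limit, and the value cannot show whether the 2 went together in that cluster. The intervals of these ratios are Poisson limits of the joint count over a fixed product. They do not hold the shares of the genes fixed, so they can be wider than the spread of such counts. An interval above 1 in a single cluster therefore does not set that cluster apart from the others. These ratios are a description of sparse counts.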

How the data were processed

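CD8+ T cells from 4 pools were captured with the 10x 5′ method. The authors processed reads with cellranger (version 7.00 and build mm10 in the submitters' processing notes), made read depth alike with its aggregate function, and kept cells between 2500 and 25000 UMIs with under 15% mitochondrial RNA and Cd3e/g and Cd8a. The deposited values are raw UMI counts per gene and cell, without normalization, and the mitochondrial share is a fraction as deposited. Clusters are those the authors named after Monocle3 and Leiden clustering on 2000 variable features. No removal of doublets is given in the sources used here and none were removed.

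Members, gene lists and comparisons were chosen with earlier results of these data known. The genes named are the 5 members, the pathway lists and, for each member, the 3 genes most like it. Symbols came from GENCODE M21 for 17534 of 17561 identifiers. Levels (CPM) are the UMIs of a gene divided by all UMIs of the same cells. Intervals are exact Poisson for CPM, exact conditional binomial for ratios of CPM and Clopper-Pearson for shares. Those for detection in the same cell are exact Poisson limits of the joint count over a fixed product. With 1 library per group and no treatment tied to a library number, no test between groups was made. Thinning drew 2500 UMIs per cell (seed 7), and 0 cells had fewer. The calculations were tested on simulated data. Promoter sequences are from RefSeq, whose table held 4 of the 5 members. Socs2 was not among them. Alternatives changed depth, cell weight, cluster labels, marker-positive cells, clonotypes and libraries. Software versions were matplotlib 3.10.9, pandas 2.3.3, scipy 1.17.1 and numpy 2.4.6 under Python 3.11.15.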

Additional observations from a re-analysis of the deposited data

How the results depend on the processing

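Of 195 alternative values of 20 log2 ratios, 146 stayed within the counting interval of the reported value and 49 left it. Among ratios whose interval excluded 0, 2 values changed sign, and among those whose interval held 0, 15 did. With cells thinned to 2500 UMIs, the ratio of cycling cells to the Teff and Tex clusters was −0.89 for Cish, −1.13 for Socs1 and −1.34 for Socs2, and that of GzmB+ Teff to the other 4 was 1.58 for Socs1, 0.98 for Socs3 and 0.34 for Pim1. Shares of all cells with a UMI were then 15.8% (Cish), 27.9% (Socs1), 1.999% (Socs2), 10.9% (Socs3) and 30.3% (Pim1). With every cell weighted the same, the cycling ratio was −0.81 for Cish and −1.08 for Socs1, and the GzmB+ Teff ratio of Socs1 was 1.61. With clusters taken from the Leiden numbers, the GzmB+ Teff ratios were −0.35 (Cish), 1.29 (Socs1), 0.30 (Socs2), 0.96 (Socs3) and 0.14 (Pim1).

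Markers of B and plasma cells alone occurred in 36.8% to 60.1% of the cells of a cluster. A cell with such a UMI was not shown to be of another type. Without cells holding markers of other cell types, which left 4609 cells, of them 19 of GzmA+ Tex, Tcm to Tn was 1.34 for Cish and 1.20 for Socs2, the Teff and Tex clusters to Tn −0.20 for Socs1 and −0.19 for Socs2, the cycling ratio −0.90 (Cish), −1.31 (Socs1), −2.01 (Socs2), −0.60 (Socs3) and 0.064 (Pim1), and the GzmB+ Teff ratio 1.81 (Socs1) and 1.42 (Socs3). With 1 cell per clonotype, which left 5712 cells, the Teff and Tex clusters to Tn were at 0.41 (Socs1), 0.82 (Socs2), 0.024 (Socs3) and 0.018 (Pim1), with a changed sign for Socs1, Socs3 and Pim1, the cycling ratio at −1.10 (Cish), −1.55 (Socs1), −1.31 (Socs2) and −1.21 (Socs3), and the GzmB+ Teff ratio at 1.64 (Socs1), 1.43 (Socs3) and 0.57 (Pim1). Leaving GzmB+ Teff out of the Teff and Tex clusters gave −0.41 (Socs1) and −0.69 (Socs3) relative to Tn, and leaving out GzmA+ Tex and TIGIT+ Teff gave a cycling ratio of −1.08 for Socs1. The cause of these shifts was not tested.

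Leaving out 1 library at a time, the Teff and Tex clusters to Tn ranged from 1.34 to 1.61 for Cish, −0.11 to 0.074 for Socs1 and −0.60 to −0.21 for Socs3. Tcm to Tn ranged from 0.25 to 0.53 for Socs3, and the cycling ratio from −1.10 to −0.95 for Socs1. The GzmB+ Teff ratio ranged from 1.36 to 1.54 (Socs1), 0.31 to 1.12 (Socs2), 1.04 to 1.33 (Socs3) and 0.30 to 0.52 (Pim1). No paired analysis was possible because each treatment group was 1 library and no test between groups was made. Ratios between clusters were taken within each library as well as over all 4.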
